A study of Mus musculus with 96 samples.

Results

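The comparison described here is between brown fat of mice that lack Ucp1 and brown fat of wild-type mice, both fed a high fat diet at 30 °C. Its members were chosen by their labels alone: the tissue iBAT (interscapular brown adipose tissue), a high fat diet and a temperature of 30 °C, with the genotype UCP1(-/-) in libraries 41 to 48 and wildtype in libraries 33 to 40. These are 16 of the 96 RNA-sequencing libraries of the series, 8 for each genotype, and each library stands for a separate animal in the study's design. The study used male C57BL/6J mice in 6 groups of 8 animals, kept for 4 weeks on a high fat diet with 48% of energy from fat at 30 °C, or on a control diet with 13% of energy from fat at 30 °C or at 20 °C, each in both genotypes. iBAT and iWAT (inguinal white adipose tissue) were taken from every group. Both groups compared here shared the strain, sex, diet, temperature and duration, and the labels name no tissue-specific driver for the genotype. The sources used here do not state the animals' age, the structure of the null allele or whether wild-type mice were littermates. The iBAT libraries on the control diet at 30 °C (16 libraries) and the iWAT libraries on the high fat diet (16 libraries) serve below only to show where the brown fat difference on the high fat diet differs.

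Brown adipocytes burn fatty acids and glucose in mitochondria whose inner membrane carries UCP1, an uncoupling protein that lets protons return without making ATP, so that the energy leaves as heat. At thermoneutrality, the temperature at which a mouse needs no extra heat to stay warm, sympathetic drive to brown fat is low and the tissue takes on a paler, fattier form. Interferon-stimulated genes are the antiviral and antigen-presentation genes that cells switch on in response to interferon, an alarm signal. Sensing of foreign or misplaced nucleic acid can lead to interferon, and whether it did so here was not tested. The integrated stress response is a second alarm system, in which ATF4 raises amino acid supply, folding capacity and the secreted factors FGF21 and GDF15.

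The values are RPKM, reads scaled to transcript length and sequencing depth, as the authors deposited them, and every difference and SE below is on the scale log2(RPKM + 1), Ucp1-KO minus wild-type, which understates the change of genes near or below 1 RPKM. The libraries hold 9.01 to 13.5 M reads (M, mega) in wild-type and 10.5 to 13.6 M reads in Ucp1-KO, recovered from the steps of the low values. Ucp1-KO libraries were the deeper ones (exact two-sided permutation test, p = 0.0225, n = 8 and 8). The correlation of log2 values across genes was 0.969 to 0.995 between libraries of one genotype and 0.942 to 0.984 between genotypes. Markers of the depot were present: Cidea, a lipid droplet protein of brown adipocytes, was at 892 ± 295 RPKM (SD, n = 8) in wild-type and 469 ± 101 RPKM in Ucp1-KO, the brown-lineage factors Zic1 and Lhx8 were at 2.56 and 1.68 RPKM in wild-type and 4.12 and 2.79 RPKM in Ucp1-KO, and the white-depot genes Hoxc9, Hoxc10 and Tcf21 did not pass the filter on low values in iBAT.

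Ucp1 itself followed the labels. It was at 4858, 6413 and 7710 RPKM (lowest, median and highest library) in wild-type and at 546, 815 and 964 RPKM in Ucp1-KO libraries. Every Ucp1-KO library lay below every wild-type library, with a log2 difference of -3.06 ± 0.12 (SE, adjusted p = 4.0e-24, limma) and a ratio of means of 8.31. The remaining 778 ± 147 RPKM (SD, n = 8) were assigned to Ucp1 in animals labelled null, and the deposited table does not show which part of the transcript those reads cover. The protein was not measured in these data.

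Across the genome the difference was broad. Of 14807 genes that reached 0.5 RPKM in 8 or more iBAT libraries, 7823 (52.8%) were higher and 1635 (11%) were lower in Ucp1-KO at an adjusted p under 0.05 (limma, Benjamini-Hochberg). That split depends on how the libraries are put on one scale. Reads on mt-Nd1, mt-Nd2, mt-Co1 and mt-Nd5 of the mitochondrial genome made up 10.1% ± 1.42 of a wild-type library and 4.77% ± 0.751 of an Ucp1-KO library (SD, n = 8 each, exact two-sided permutation p = 0.000155, the smallest this design allows). The median gene was 0.246 higher in Ucp1-KO as deposited, 0.01 higher after median-ratio scaling and 0.062 lower after quantile normalization (a log2 median of -0.062). Higher genes were 82.7% of the calls as deposited, 51.1% after median-ratio scaling (4057 higher, 3884 lower) and 41.1% after quantile normalization (3391 higher, 4850 lower). Counts of genes that rose or fell are therefore given below for calls in the same direction under all 3 scalings, unless said to be as deposited. There were 3240 such genes higher (21.9%) and 1632 lower (11%). Counts from the diet and depot comparisons are as deposited except where scalings are named. Overlap between the genotypes was judged here and below on RPKM as deposited only, and so carries the same dependence on scale. In 3019 genes (20.4%) every Ucp1-KO library was above every wild-type library, and in 371 genes (2.51%) every one was below. Changes of more than 2-fold as deposited ran mostly upward, with 1224 genes (8.27%) called higher and 122 (0.824%) called lower. They were not counted under the other scalings.

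**Figure D1:**
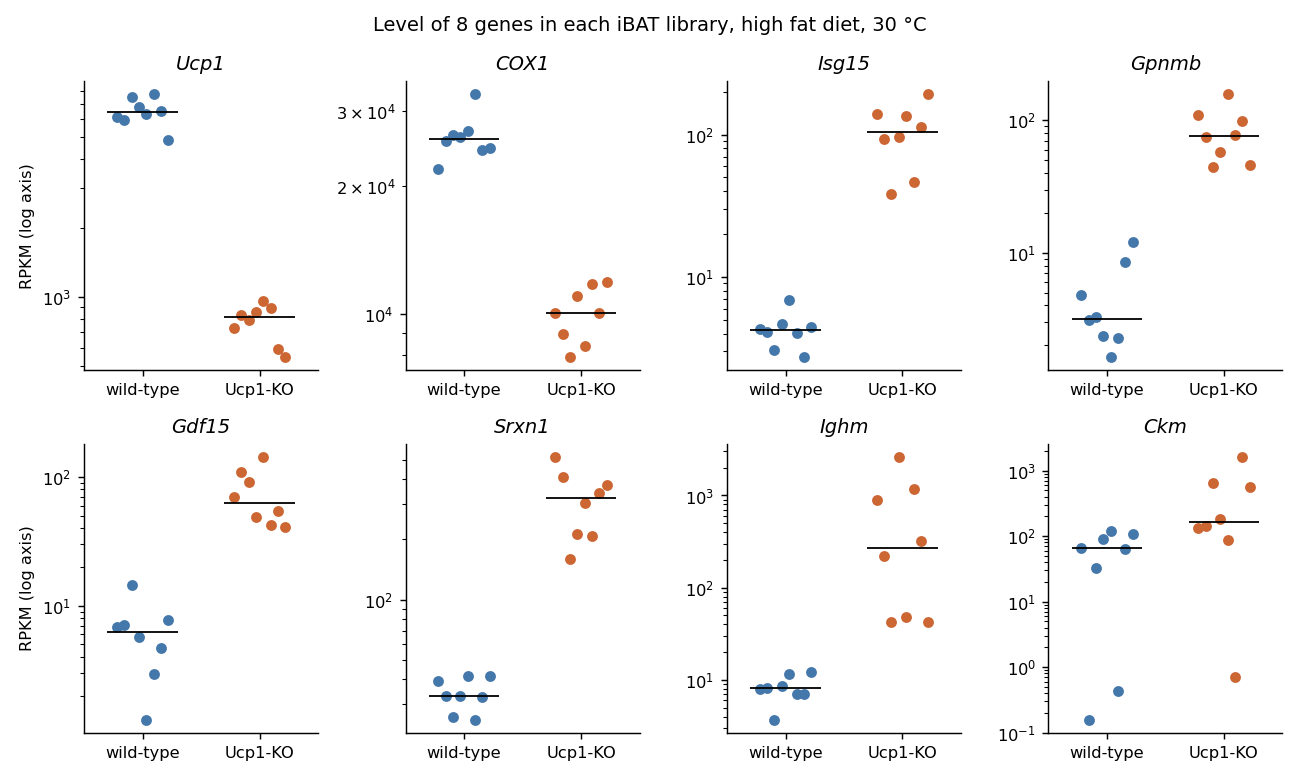
RPKM on a log axis in each of the 16 iBAT libraries on the high fat diet, one point a library (blue wild-type, orange Ucp1-KO), with the group median as a line, for Ucp1, the mitochondrially encoded COX1, the interferon-stimulated gene Isg15, the macrophage gene Gpnmb, the stress hormone gene Gdf15, the antioxidant enzyme gene Srxn1, the antibody gene Ighm and the muscle gene Ckm. The groups did not overlap for the first 7 genes, Ighm spanned 42.8 to 2622 RPKM among Ucp1-KO libraries, and Ckm overlapped between the genotypes.

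Interferon-stimulated genes had the largest median difference of the gene lists. Of 32 type I interferon genes tested, 31 rose under all 3 scalings and none fell, with a median log2 difference of 2.72 beside 0.246 for all genes tested, and 29 of them did not overlap between the genotypes. Isg15, a ubiquitin-like protein joined to others in antiviral defence, was at 2.74, 4.22 and 6.84 RPKM in wild-type and at 38.5, 104 and 192 RPKM in Ucp1-KO libraries. Ifit1, which binds viral RNA, was at 1.29, 2.31 and 4.85 RPKM against 25.6, 63.6 and 108 RPKM. Both genes were higher in every Ucp1-KO library than in any wild-type library, by 4.21 ± 0.30 (SE, adjusted p = 5.7e-16) and 4.09 ± 0.27 (adjusted p = 9.4e-17). Irf7, the factor that amplifies the type I response, rose by 3.64 ± 0.26, and Usp18, which removes ISG15 from proteins, by 3.38 ± 0.24. The member that did not pass the test was Ifi27 (-0.14 ± 0.14), which was called lower after median-ratio scaling.

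The promoters of these genes carry a sequence that can be read from the reference. The interferon-stimulated response element has the core GAAANNGAA, searched here on both strands in promoters of 300 bases (250 before to 50 after the start of transcription), where neighbouring matches may overlap one another. The 150 bases before the start of Isg15 (chr4:156200819-156200968, minus strand) and Ifit1 (chr19:34640739-34640888, plus strand) are shown because both hold 3 matches close together, from RefSeq for GRCm38.p6, with the bases of the matches in capitals.
Isg15: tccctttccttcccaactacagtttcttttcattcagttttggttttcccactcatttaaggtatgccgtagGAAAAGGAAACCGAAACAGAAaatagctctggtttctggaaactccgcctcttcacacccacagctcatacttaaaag
Ifit1: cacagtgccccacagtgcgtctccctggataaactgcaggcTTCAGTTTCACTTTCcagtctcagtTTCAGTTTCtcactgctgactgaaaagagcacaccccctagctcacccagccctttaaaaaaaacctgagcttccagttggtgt
In Isg15 the 3 matches lie on the gene's strand and begin 78, 72 and 66 bases before the start, at positions -78, -72 and -66. In Ifit1 they lie on the other strand at positions -109, -103 and -84. Of the 31 type I interferon genes that rose under all 3 scalings, 21 matched the RefSeq table and 14 of those (66.7%) held the core, against 972 of 11001 (8.84%) promoters of genes tested and 2638 of 27025 (9.76%) in the whole table. A match is a description of letters and not a measured binding site. The list holds genes already known to respond to interferon, and its members that did not rise were not counted. The share therefore describes the list and does not tie the core to the rise.

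Genes induced by interferon gamma rose as well, 23 of 25 under all 3 scalings with a median of 1.93 and none lower. Ubd, a ubiquitin-like modifier that is among the most inducible of this set, had the largest rise of any named gene, from 0.818, 2.04 and 5.94 RPKM in wild-type to 39.6, 111 and 147 RPKM in Ucp1-KO (4.90 ± 0.28, adjusted p = 1.1e-18). Cxcl10, a chemokine for T cells, went from 0.376, 1.46 and 3.41 RPKM to 43.2, 66.5 and 85.2 RPKM (4.72 ± 0.28), and Cxcl9 rose by 2.16 ± 0.18. Neither Ubd nor Cxcl10 overlapped between the genotypes. The immunoproteasome subunit Psmb8, which cuts peptides for presentation, rose by 2.03 ± 0.15. Interferon gamma itself, Ifng, did not pass the filter on low values. In the promoters of the members that rose, 10 of 17 matched genes (58.8%) held the GAAANNGAA core.

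Genes of antigen presentation rose with them. All 13 MHC class I genes and all 12 MHC class II genes tested were called higher, 11 and 12 of them under all 3 scalings, with medians of 1.53 and 1.37. H2-K1, a class I heavy chain, was at 110, 145 and 178 RPKM in wild-type and at 311, 604 and 641 RPKM in Ucp1-KO, and its partner B2m at 509, 631 and 722 RPKM against 1381, 1858 and 2022 RPKM. Neither overlapped (1.96 ± 0.13 and 1.53 ± 0.12). On the class II side, the protease Ctss, which trims the invariant chain, rose by 3.27 ± 0.32, H2-Ab1 by 1.74 ± 0.23 and the invariant chain Cd74 by 1.75 ± 0.24. Sensors of nucleic acid followed: 17 of 20 rose under all 3 scalings (median 1.12). Trex1, the exonuclease that clears DNA from the cytosol, rose by 1.81 ± 0.14, the RNA sensor Tlr7 by 1.49 ± 0.25, and the DNA-sensing pair Tmem173 (STING) and Mb21d1 (cGAS) by 0.98 ± 0.18 and 0.66 ± 0.10. The adaptor Mavs fell (-0.26 ± 0.09).

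Markers of macrophages rose in the same libraries. Of 26 general macrophage genes, 20 rose and 1 fell under all 3 scalings (median 1.54), and of 24 genes known from lipid-associated macrophages, 21 rose and 1 fell (median 1.39). Gpnmb, a lysosomal glycoprotein of lipid-laden macrophages, was at 1.63, 3.17 and 12.1 RPKM in wild-type and at 44.6, 76 and 157 RPKM in Ucp1-KO libraries (3.97 ± 0.37, adjusted p = 1.8e-12). Trem2, the lipid receptor of these cells, was at 0.372, 0.873 and 3.05 RPKM against 7.99, 17 and 37.6 RPKM (3.02 ± 0.28), and Lgals3, galectin-3, at 13.5, 19.8 and 59.7 RPKM against 263, 293 and 396 RPKM (3.70 ± 0.27). All 3 genes were above the wild-type range in every Ucp1-KO library. Cd68 rose by 2.60 ± 0.30, the mannose receptor Mrc1 by 1.36 ± 0.20 and the growth factor receptor Csf1r by 1.07 ± 0.25, while the haemoglobin scavenger receptor Cd163 fell by 0.83 (SE 0.19, adjusted p = 0.00025). The lysosomal protease Ctsz was the 1 lipid-associated gene that fell (-0.47). In whole tissue, more cells of a type and more RNA per cell cannot be told apart, here or in any group below.

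Chemokines and markers of other leukocytes were higher too. Of 28 monocyte and chemokine genes, 23 rose under all 3 scalings and none fell. Ccl5 rose by 3.07 ± 0.28, the monocyte receptor Ccr2 by 1.67 ± 0.21, and its ligand Ccl2 by 1.31 ± 0.35, with overlap between genotypes for Ccl2 (1.62 to 20.8 RPKM against 6.9 to 23.9 RPKM). T and NK cell markers were near 0 in wild-type and low but higher in Ucp1-KO: their summed level was 11.6 to 19.6 RPKM in wild-type and 43.2 to 99.3 RPKM in Ucp1-KO over 23 genes, of which 21 rose under all 3 scalings (median 1.16). The T cell receptor subunit Cd3e was at 0.0733, 0.201 and 0.386 RPKM against 0.613, 1.89 and 3.88 RPKM, and the kinase Lck at 0.0716, 0.28 and 0.688 RPKM against 1.94, 3.28 and 7.11 RPKM. Neither overlapped, and Cd8a rose by 1.06 ± 0.21. All 23 members passed the filter, but Cd3e was below its 0.5 RPKM in every wild-type library here and above it in every Ucp1-KO library. Genes like it entered the test through libraries other than these wild-type ones. With a filter of 2 RPKM only 14 members of this list were left as higher, since fewer genes were tested. Neutrophil and mast cell genes were scarce, 9 passing the filter with a summed level of 14.0 to 45.9 RPKM in Ucp1-KO, and 4 rose under all 3 scalings.

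B cell and antibody genes were higher in Ucp1-KO and uneven among those animals. Ighm, the heavy chain of IgM, was at 3.7, 8.11 and 12.1 RPKM in wild-type and at 42.8, 270 and 2622 RPKM in Ucp1-KO (4.84 ± 0.55, adjusted p = 3.0e-10), and Igj, the chain that joins IgM and IgA units, at 0.167, 0.732 and 1.61 RPKM against 8.49, 40.5 and 244 RPKM (4.70 ± 0.41). Neither overlapped, yet libraries 44, 46 and 41 were far above the other Ucp1-KO libraries. Of 9 B cell markers that passed the filter, 8 rose under all 3 scalings (median 1.26), and 4 were called with a fit on the 16 libraries only or with a filter of 2 RPKM. A marker low in wild-type could pass the filter through Ucp1-KO libraries alone. This count, like that of neutrophil and mast cell genes, therefore favours markers that rose. The B cell receptor component Cd79a was low, at 0.119, 0.845 and 9.31 RPKM in Ucp1-KO, and overlapped with wild-type. The B cell markers Ms4a1, Pax5, Blk, Cr2 and Fcer2a did not pass the filter. Markers of lymph node stroma, Ccl19, Ccl21a and Ccl21b, did not pass it either, and whether lymphoid tissue lies beside the depot in the high libraries was not tested.

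Matrix genes rose together. Of 17 collagen genes, 13 rose under all 3 scalings and none fell (median 1.20). Col1a1, a chain of the main fibrillar collagen, was at 15.7, 20 and 42 RPKM in wild-type and at 45.7, 68.6 and 95.7 RPKM in Ucp1-KO (1.62 ± 0.24, adjusted p = 1.1e-07), and Col3a1 at 117, 146 and 288 RPKM against 362, 474 and 630 RPKM. Neither overlapped. Of 32 matrix remodelling genes, 19 rose and 1 fell; the macrophage elastase Mmp12 rose by 3.01 ± 0.35, the membrane protease Mmp14 by 1.70 ± 0.17 and the protease inhibitor Timp1 by 1.54 ± 0.24. Of 12 progenitor markers, 5 rose and 2 fell. Beside this count and the next, 21.9% of all genes rose and 11% fell under all 3 scalings. Pdgfra rose by 0.83 ± 0.16, while the preadipocyte gene Dlk1 fell from 0.63, 1.78 and 4.04 RPKM to 0.108, 0.416 and 0.66 RPKM. Of 12 Schwann cell and nerve genes, 7 rose and 1 fell under all 3 scalings, and the Schwann cell factor Sox10 rose by 1.04 ± 0.13. The macrophage markers above also rose between the genotypes, and their part in the matrix result was not tested. Within Ucp1-KO they did not follow every group: library 48 had the lowest mean log2(RPKM + 1) of general macrophage genes (3.95) and the highest of Schwann cell and nerve genes (3.31).

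Library 43 was the lowest Ucp1-KO library for several immune groups. The mean log2(RPKM + 1) of the type I interferon list was 4.42 there and at most 2.94 in any wild-type library. Adipokine and white fat genes in library 43 were at the level of the wild-type libraries. Skeletal muscle genes were highest in Ucp1-KO libraries 43, 47 and 48, with list means of 7.89, 8.88 and 7.29. Libraries 42 and 44 (5.52 and 5.83) also lay above the highest wild-type library (5.37), and they stay in the fit below. Without those 3 libraries the counts called as deposited were 31 of 32 type I interferon genes, 23 of 24 lipid-associated macrophage genes, 16 of 17 collagen genes and 9 of 9 B cell genes higher, an alternative chosen after the muscle values were seen. As deposited, 52.8% of all genes were called higher with every library in. Under all 3 scalings the counts with every library in were 31, 21, 13 and 8, and they were not computed without the 3 libraries.

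**Figure D2:**
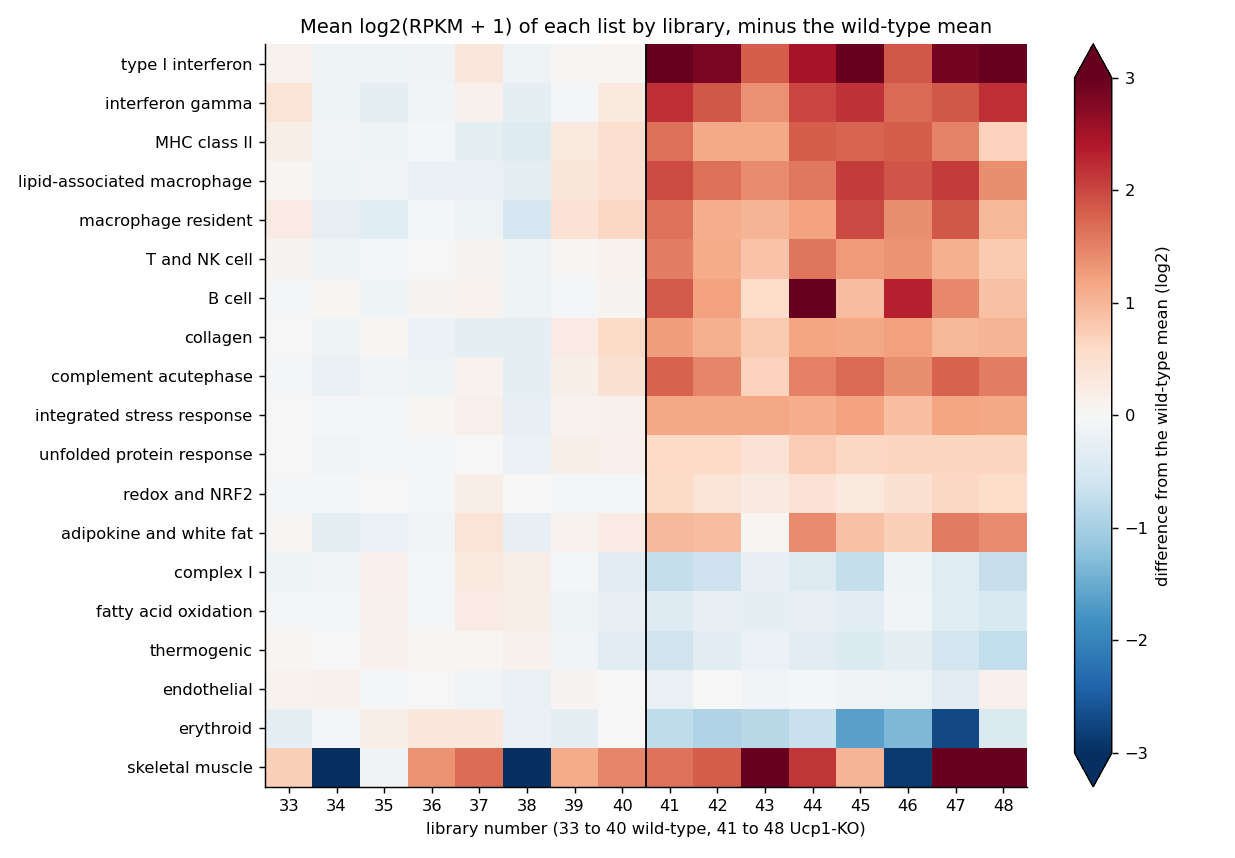
Mean log2(RPKM + 1) of the members of 19 gene lists (rows) in each library (columns, 33 to 40 wild-type and 41 to 48 Ucp1-KO), minus the mean of the 8 wild-type libraries, with red for higher and blue for lower and colours capped at 3. The immune lists are red in every Ucp1-KO library, with type I interferon, interferon gamma, B cell and complement genes palest in library 43, B cell genes stand out in libraries 44 and 46, and muscle genes vary within both genotypes.

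Stress response genes formed a second large group. Of 29 genes of the ATF4 arm of the integrated stress response, 18 rose and 1 fell under all 3 scalings (median 0.764), and 17 did not overlap between genotypes. Gdf15, a hormone that acts on the brainstem to lower food intake, was at 1.3, 6.27 and 14.5 RPKM in wild-type and at 40.9, 62.3 and 143 RPKM in Ucp1-KO (3.43 ± 0.35, adjusted p = 2.2e-11). Fgf21, a hormone of fuel metabolism, was at 1.18, 2.67 and 5.46 RPKM against 9.45, 13.8 and 28.5 RPKM (2.11 ± 0.22, adjusted p = 5.6e-11). Slc7a11, the cystine importer that feeds glutathione synthesis, was at 0.0333, 0.0972 and 0.145 RPKM against 2.55, 5.29 and 10 RPKM (2.51 ± 0.16). All 3 genes were higher in every Ucp1-KO library. The pseudokinase Trib3 rose by 1.70 ± 0.19, the phosphatase subunit Ppp1r15a by 1.69 ± 0.12, the transporter chain Slc3a2 by 1.35 ± 0.09, Ddit3 (CHOP) by 0.76 ± 0.18 and Atf4 by 0.54 ± 0.10, while Vldlr fell (-0.43) and Atf5 gave 0.04 ± 0.13 with a sign that turned under both other scalings.

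ATF4 binds with C/EBP partners at a site with the core TGATGNAA, searched on both strands in the same 300-base promoters. The 150 bases before the start of Slc7a11 (chr3:50443614-50443763, minus strand) and Fgf21 (chr7:45615491-45615640, minus strand) are shown because both genes rose without overlap and hold the core, in capitals.
Slc7a11: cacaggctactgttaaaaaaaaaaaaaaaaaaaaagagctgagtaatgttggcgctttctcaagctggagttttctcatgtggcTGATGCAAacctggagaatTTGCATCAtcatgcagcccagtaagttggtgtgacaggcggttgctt
Fgf21: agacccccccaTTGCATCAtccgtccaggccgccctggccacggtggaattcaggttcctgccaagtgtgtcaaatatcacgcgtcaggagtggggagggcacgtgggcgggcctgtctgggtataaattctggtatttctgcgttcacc
Slc7a11 has 2 matches, at position -66 on the gene's strand and at -47 on the other strand, and Fgf21 has 1 at -139 on the other strand. Of the 18 integrated stress genes that rose, 16 matched the table and 7 of those (43.8%) held the core, against 316 of 11001 (2.87%) promoters of genes tested and 1219 of 27025 (4.51%) in the table. None of the 14 matched unfolded protein response genes that rose held it, which says only that these letters are not in this window. Integrated stress genes that did not rise were not counted, so the 43.8% describes the list and does not tie the core to the rise.

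Genes of endoplasmic reticulum folding rose by smaller and more uniform amounts. Of 22 such genes, 15 rose under all 3 scalings and none fell (median 0.577). Hspa5 (BiP), the main folding chaperone of that compartment, was at 117, 141 and 153 RPKM in wild-type and at 228, 248 and 288 RPKM in Ucp1-KO (0.85 ± 0.06, adjusted p = 9.4e-17), and the transcription factor Xbp1 at 28.9, 37.2 and 60.9 RPKM against 65.4, 84.9 and 134 RPKM (1.12 ± 0.13). Neither overlapped. Xbp1 is also a gene of antibody-secreting cells, whose markers were higher in the same libraries, and their part in it was not tested. Mitochondrial chaperones and proteases did not share this direction: none of 15 rose and 5 fell under all 3 scalings, among them the protease subunit Afg3l2 (-0.25 ± 0.05).

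Antioxidant genes moved in both directions, and iron and heme genes mostly rose. Beside the counts, 21.9% of all genes rose and 11% fell under all 3 scalings. Of 30 redox genes, 14 rose and 6 fell under all 3 scalings. Srxn1, which repairs oxidized peroxiredoxins and is a target of NRF2, was at 25.2, 33.1 and 41.6 RPKM in wild-type and at 159, 321 and 516 RPKM in Ucp1-KO (3.10 ± 0.19, adjusted p = 1.4e-17). The NRF2 targets Nqo1 and Txnrd1 and the glutathione reductase Gsr rose by 1.61 ± 0.18, 1.16 ± 0.11 and 1.54 ± 0.12, and Ucp2, a relative of Ucp1 that is common in leukocytes, by 1.37 ± 0.15, while the secreted glutathione peroxidase Gpx3 fell (-1.05). Among 21 iron and heme genes, 13 rose and 2 fell, the falls being near the share of all genes. Alas1, the first enzyme of heme synthesis outside red cells, was at 27.6, 37.1 and 52.4 RPKM against 154, 165 and 192 RPKM (2.15 ± 0.12, adjusted p = 1.7e-19), and the heme binder Hpx at 0.285, 0.727 and 3.6 RPKM against 12.7, 23.6 and 33.4 RPKM. Neither overlapped. The heme oxygenase Hmox1 rose by 1.05 ± 0.22, the transferrin receptor Tfrc by 1.12 ± 0.14 and the ferroxidase Cp by 1.77 ± 0.13, and the iron exporter Slc40a1 fell (-1.11).

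Genes of the mitochondrial respiratory chain were lower. Of the 36 nuclear-encoded complex I genes, 28 fell and none rose under all 3 scalings (median -0.492), and of 38 genes of complexes II to V, 29 fell and 2 rose (median -0.492). Ndufv1, the NADH-binding subunit of complex I, was at 377, 456 and 473 RPKM in wild-type and at 183, 200 and 339 RPKM in Ucp1-KO (-0.98 ± 0.10, adjusted p = 4.9e-12). Cox4i1, a subunit of cytochrome c oxidase, was at 1078, 1365 and 1644 RPKM against 817, 949 and 1242 RPKM (-0.51 ± 0.13). Ndufv1 did not overlap and Cox4i1 did. Sdhb, Uqcrc1 and Atp5a1, of complexes II, III and V, fell (-0.73 ± 0.10, -0.74 ± 0.09 and -0.49 ± 0.06), whereas Atp5g1, one of several near-identical genes for the ATP synthase ring, was higher (1.77 ± 0.33), with the split of reads among those copies uncertain. COX1, encoded in the mitochondrial genome, was at 21916, 25791 and 32835 RPKM against 7899, 10042 and 11866 RPKM, without overlap (-1.39 ± 0.16, adjusted p = 7.5e-10).

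Genes of fuel oxidation fell with those of the respiratory chain. Of 20 TCA cycle genes 15 fell and 1 rose under all 3 scalings (median -0.505), and of 27 fatty acid oxidation genes 18 fell and 2 rose (median -0.495). Suclg1, a subunit of succinyl-CoA ligase, was at 436, 540 and 613 RPKM in wild-type and at 189, 232 and 394 RPKM in Ucp1-KO (-1.07 ± 0.11), and Acadl, the long-chain acyl-CoA dehydrogenase, at 1099, 1141 and 1324 RPKM against 608, 671 and 815 RPKM (-0.74 ± 0.07, adjusted p = 7.6e-12). Neither overlapped. Idh2 fell by 1.06 (SE 0.10), Hadha by 0.41 (SE 0.07) and Cpt2 by 0.39 (SE 0.09). Citrate synthase, Cs, gave -0.29 ± 0.13 (adjusted p = 0.055), not past the test as deposited, and was called lower after median-ratio scaling (-0.604, adjusted p = 0.000207) and quantile normalization (-0.247, adjusted p = 0.0231). The peroxisomal enzyme Ehhadh gave -0.07 ± 0.14 and was called lower after median-ratio scaling (-0.381, adjusted p = 0.0298). The peroxisomal thiolase Acaa1b was higher (1.73).

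Among 33 brown adipocyte and heat production genes other than Ucp1, 17 fell and 1 rose under all 3 scalings (median -0.378). Pank1, which makes coenzyme A, was at 122, 158 and 169 RPKM in wild-type and at 31.5, 56.5 and 72.4 RPKM in Ucp1-KO (-1.55 ± 0.12, adjusted p = 3.5e-15). The potassium channel Kcnk3 was at 102, 174 and 244 RPKM against 39.3, 69 and 101 RPKM (-1.44 ± 0.16), and the fatty acid activating transporter Slc27a2 and the proton channel Otop1 fell by 1.48 and 1.07 (SE 0.14 and 0.11). None of these 4 genes overlapped. Cidea fell by 0.89 (SE 0.14), with overlap. The regulators did not follow: the coactivator Ppargc1a gave 0.19 ± 0.24, the thyroid hormone activating enzyme Dio2 0.23 ± 0.19 and the brown fat factor Prdm16 -0.16 ± 0.10 (adjusted p = 0.49, 0.28 and 0.15); the signs of Ppargc1a and Dio2 turned under median-ratio scaling, and Prdm16 was called lower under both other scalings (-0.408 and -0.529). Elovl3, a fatty acid elongase induced in active brown fat, was the 1 member that rose, from 7.33, 29.2 and 176 RPKM to 80.8, 108 and 160 RPKM (1.84 ± 0.29), inside the wild-type range.

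**Figure D3:**
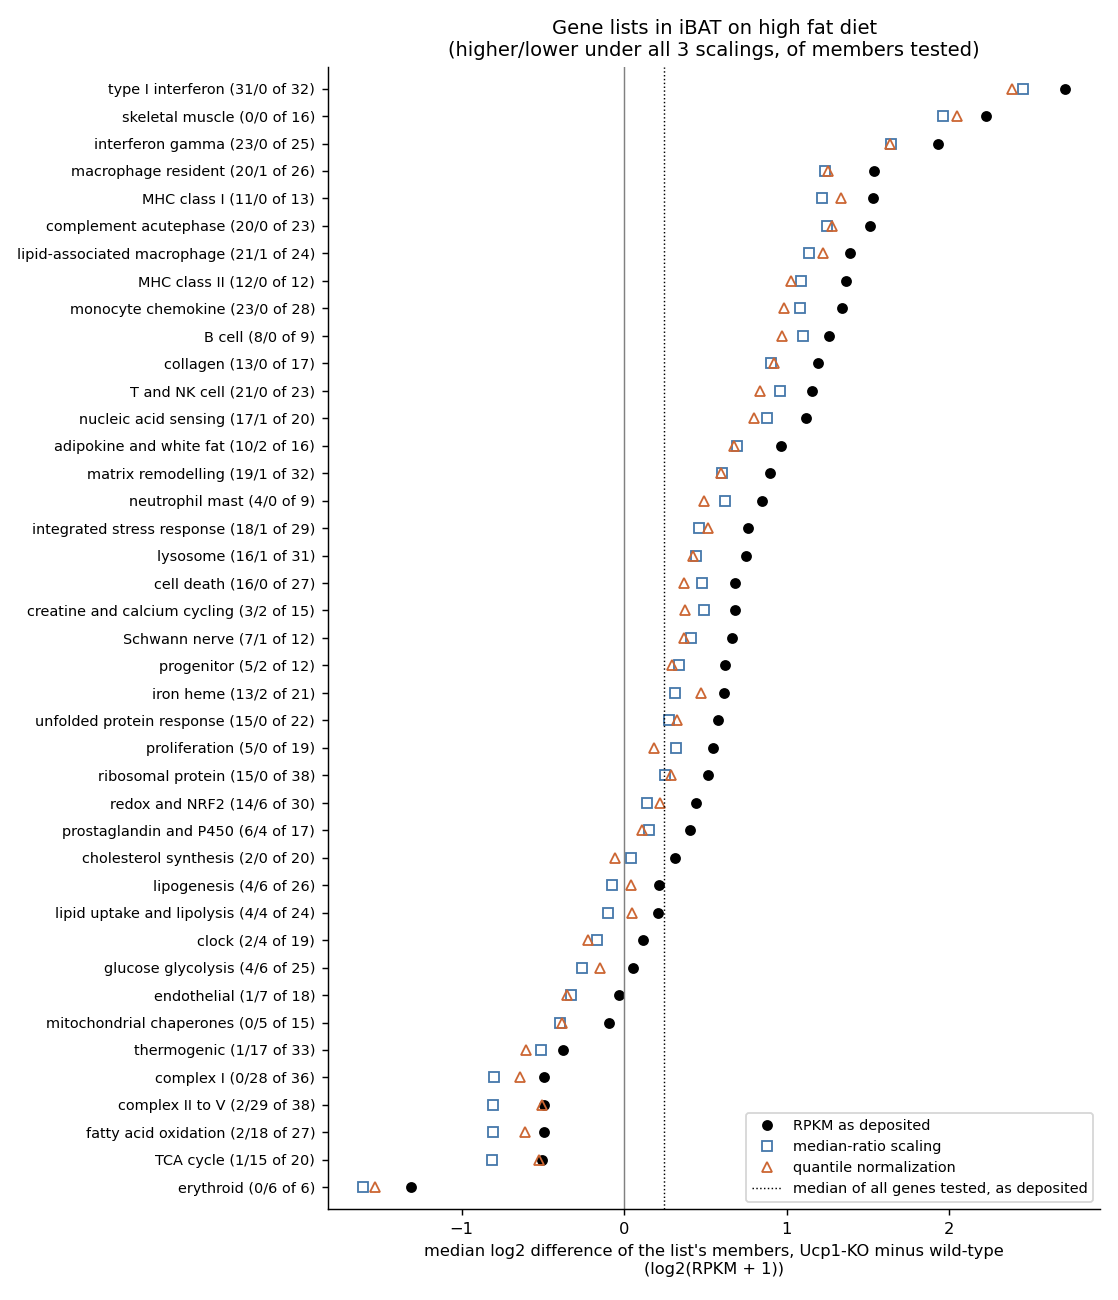
Median log2 difference (Ucp1-KO minus wild-type, log2(RPKM + 1)) of the members tested of each gene list, for RPKM as deposited (filled circles), after median-ratio scaling (squares) and after quantile normalization (triangles), with the numbers of members higher and lower under all 3 beside each name. Type I interferon genes lie at 2.72 as deposited, the median of all genes tested at 0.246 (dotted line), complex I genes at -0.492, and several metabolic lists change side with the scaling.

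Lipid genes showed no common direction. The shares over all genes tested, beside which the lipid and glucose counts stand, were 21.9% higher and 11% lower under all 3 scalings. Of 26 fatty acid and triglyceride synthesis genes, 4 rose and 6 fell under all 3 scalings, and the list's median was 0.217 as deposited and -0.074 after median-ratio scaling. Mlxipl (ChREBP), the glucose-responsive lipogenic factor, was at 58.5, 76.4 and 106 RPKM in wild-type and at 27.8, 33.6 and 38.3 RPKM in Ucp1-KO, without overlap (-1.17 ± 0.09, adjusted p = 3.3e-15), and the mitochondrial carboxylase Acacb fell by 0.98 (SE 0.10). In the other direction, Dgat1, which completes triglyceride synthesis, was at 66.4, 108 and 159 RPKM against 207, 283 and 339 RPKM (1.37 ± 0.14), and the sterol-regulated factor Srebf1 rose by 0.99 ± 0.14, with library 43 inside the wild-type range. Fasn (0.20 ± 0.30), Acly (0.23 ± 0.27) and Scd1 (0.35 ± 0.20) did not pass the test as deposited, and each spanned a wide range within both genotypes. Scd1 was called higher after quantile normalization (1.03, adjusted p = 4.31e-05) and without library 33 (0.451, adjusted p = 0.0479). For cholesterol synthesis, 2 of 20 genes rose under all 3 scalings, including the squalene synthase gene Fdft1 (0.76 ± 0.11). As deposited 12 were called higher, beside 52.8% of all genes.

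Genes of lipid droplet proteins did not all rise. Plin2, which coats lipid droplets in most cells, was at 503, 698 and 873 RPKM in wild-type and at 1331, 1578 and 1868 RPKM in Ucp1-KO (1.21 ± 0.14, adjusted p = 2.7e-10), and Plin4 at 191, 199 and 234 RPKM against 290, 447 and 542 RPKM (1.05 ± 0.12). Neither overlapped. Cidec, which fuses droplets in white adipocytes, rose by 0.98 ± 0.16, whereas Plin5, which ties droplets to mitochondria, gave 0.12 (adjusted p = 0.40). Plin3 was called lower as deposited by a narrow margin (-0.31, adjusted p = 0.041), and its values in other fits are not given here. The lipases Pnpla2 (-0.23 ± 0.09) and Lipe (0.15 ± 0.08) gave small values; the Pnpla2 call was lost without library 35, 37, 38 or 43 (adjusted p of 0.0522 to 0.0857), and Lipe was called higher without library 35, 38 or 43 (0.186, 0.188 and 0.229). Lipoprotein lipase, Lpl, rose by 0.50 ± 0.14 as deposited and gave 0.186 after median-ratio scaling (adjusted p = 0.27). Of 24 lipid uptake and lipolysis genes, 4 rose and 4 fell under all 3 scalings, with medians of 0.21 as deposited and -0.1 after median-ratio scaling; without library 37, 43 or the 3 muscle-rich libraries 1 member was lower.

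Glucose genes were split. Under all 3 scalings 4 of 25 rose and 6 fell (medians of 0.053 as deposited and -0.26 after median-ratio scaling). The insulin-responsive transporter Slc2a4 fell by 0.40 (SE 0.10), and Pfkl, a phosphofructokinase subunit, was at 144, 170 and 190 RPKM in wild-type and at 63.8, 81 and 120 RPKM in Ucp1-KO (-0.98 ± 0.09). The ubiquitous transporter Slc2a1 rose by 1.01 ± 0.11, and the leukocyte hexokinase Hk3 from 0.262, 0.504 and 1.03 RPKM to 3.19, 5.15 and 10.2 RPKM. Neither Pfkl nor Hk3 overlapped between genotypes. Among creatine and calcium cycling genes 3 of 15 rose and 2 fell, near the 21.9% and 11% of all genes. Gatm, the first enzyme of creatine synthesis, rose by 1.68 ± 0.18 while Ckb, the creatine kinase of brown adipocytes, fell by 0.85 (SE 0.19). As deposited 7 of these 15 were called higher, beside 52.8% of all genes. The count was 4 without any 1 of libraries 34, 38, 43, 47 or 48, the libraries that also moved the muscle list.

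White fat and secreted genes rose as a group, 10 of 16 under all 3 scalings with 2 lower (median 0.966). Retn, resistin, was at 16.8, 40.1 and 122 RPKM in wild-type and at 35.6, 252 and 409 RPKM in Ucp1-KO (2.18 ± 0.32), and Slc7a10, an amino acid transporter of white adipocytes, at 4.3, 6.63 and 17.3 RPKM against 7.17, 46.3 and 70.7 RPKM (2.14 ± 0.27). Both overlapped. Nampt, the NAD-making enzyme, fell from 108, 142 and 165 RPKM to 60.2, 75.8 and 85.1 RPKM without overlap. Adiponectin, Adipoq, was called higher as deposited (0.60 ± 0.15) but not after median-ratio scaling (0.283, adjusted p = 0.11), and leptin, Lep, gave 0.88 ± 0.36 (adjusted p = 0.028) with the call lost under both scalings and without library 35, 38, 43, 44 or 47.

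Endothelial genes did not share the rise of the leukocyte genes. Of 18, 7 fell and 1 rose under all 3 scalings, while as many as 13 were called lower after median-ratio scaling. Kdr, the main VEGF receptor, was at 58.2, 76.2 and 88.9 RPKM in wild-type and at 47.5, 52.7 and 67.9 RPKM in Ucp1-KO (-0.43 ± 0.10), the receptor Tie1 fell by 0.42 (SE 0.09), and the growth factor Vegfb by 0.71 (SE 0.10). Von Willebrand factor, Vwf, rose by 0.80 ± 0.13 without overlap. Cdh5 fell by 0.33 (SE 0.12), a call lost without library 47 (adjusted p = 0.0553), and Pecam1 gave 0.12 ± 0.10.

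Red blood cell genes were lower in Ucp1-KO, 6 of 6 under all 3 scalings (median -1.31). The globin genes Hba-a1 and Hbb-bs were at 64.5, 85.7 and 107 RPKM and at 273, 355 and 465 RPKM in wild-type, and at 6.05, 41.7 and 56.1 RPKM and at 30.5, 185 and 263 RPKM in Ucp1-KO. Neither overlapped (-1.36 ± 0.46 and -1.35 ± 0.47, adjusted p = 0.01 and 0.011). Library 47 was the lowest for both genes. The globin genes share reads through near-identical copies, so the split between copies is uncertain.

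Skeletal muscle genes, which brown adipocytes do not make in quantity, varied from library to library. The summed level of 16 sarcomere and muscle genes was 22.7 to 1042 RPKM in wild-type and 26.7 to 13180 RPKM in Ucp1-KO. Ckm, muscle creatine kinase, was at 0.157, 64.9 and 118 RPKM against 0.703, 162 and 1616 RPKM, an overlap of nearly the whole wild-type range. As deposited 13 members were called higher, none was under all 3 scalings, and leaving out 1 library gave 0 to 15. The 6 called genes with the largest SD within a group were all of this kind (Ckm, Tnnc2, Tnni2, Tnnt3, Pvalb and Atp2a1), while over 9019 genes with at least 5 RPKM in the higher group the median SD on the log2 scale was 0.187 in both genotypes.

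Complement and acute phase genes rose, 20 of 23 under all 3 scalings (median 1.51). Cfb, factor B of the alternative pathway, was at 5.09, 6.54 and 9.8 RPKM in wild-type and at 24.7, 86.5 and 103 RPKM in Ucp1-KO (3.28 ± 0.21, adjusted p = 1.9e-17), C4b rose by 2.26 ± 0.25 and C3 by 0.99 ± 0.18. Among 27 cell death genes 16 rose and none fell (median 0.682). The inflammatory caspase Casp4 was at 0.814, 1.87 and 4.68 RPKM against 9.57, 16.1 and 21.3 RPKM (2.58 ± 0.17), and Mlkl, the pore-forming protein of necroptosis, at 1.79, 2.39 and 3.02 RPKM against 4.82, 9.99 and 13.5 RPKM (1.67 ± 0.14). Neither overlapped. Both genes are also interferon-inducible in many cells, and the part of interferon in their rise was not tested. Of 31 lysosome genes 16 rose and 1 fell, with the protease Ctsb at 0.78 ± 0.08.

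Smaller groups were mixed. Beside their counts, 21.9% of all genes rose and 11% fell under all 3 scalings, and 52.8% were called higher as deposited. Of 38 cytosolic ribosomal protein genes 34 were called higher as deposited and 15 under all 3 scalings, Rpl10a with the smallest adjusted p (0.74 ± 0.09). Of 19 proliferation genes 16 were called higher as deposited and 5 under all 3 scalings. Among 19 clock genes 2 rose and 4 fell: the output factor Hlf fell from 5.9, 9.08 and 12.3 RPKM to 2, 2.48 and 3.07 RPKM (-1.44 ± 0.12) and Rora rose by 1.06 ± 0.14. Of 17 prostaglandin and cytochrome P450 genes 6 rose and 4 fell, including the cholesterol-oxidizing enzyme Cyp27a1 (-0.67 ± 0.08).

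By size alone, the 10 largest rises among named genes with at least 5 RPKM in the higher group were Ubd, Ighm, Cxcl10, Igj, Igh-VX24, Ifit3, Isg15, Ifit1, Plac8 and Gpnmb, between 3.97 and 4.90. Igh-VX24 is an antibody heavy chain variable segment and shares reads with other heavy chain rows, so it is not independent of Ighm. Plac8, a gene of leukocytes, was at 0.583, 1.22 and 1.71 RPKM in wild-type and at 13.5, 37.2 and 49.7 RPKM in Ucp1-KO (3.98 ± 0.27). The 10 largest falls were Cyp2b10, Ucp1, Aspg, Lgr6, Kng2, Acot11, Trim67, Fam151a, Mmd2 and Mapt. Cyp2b10, a cytochrome P450 known as a target of the receptor CAR in liver, fell from 8.63, 14.1 and 36.3 RPKM to 0.223, 0.428 and 4.29 RPKM (-3.39 ± 0.32, adjusted p = 3.6e-12).

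Several of these falls were steep in nearly every animal. Aspg, an asparaginase, was at 8.65, 19.5 and 62.7 RPKM against 1.57, 2.85 and 6.33 RPKM (-2.46 ± 0.25). Lgr6, a receptor of R-spondins, was at 41.8, 52.7 and 70.2 RPKM against 3.6, 8.2 and 34.6 RPKM (-2.36 ± 0.26), and Kng2, a kininogen, at 31.3, 40.5 and 47.1 RPKM against 1.95, 5.64 and 24.9 RPKM (-2.35 ± 0.25). None of these overlapped. The thioesterase Acot11, a thermogenic list member, fell with overlap (24.1 to 69.1 RPKM against 2.59 to 34.1 RPKM), and the ubiquitin ligase Trim67 and the microtubule protein Mapt (tau) fell without it (-2.23 ± 0.13 and -1.87 ± 0.12).

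The same genotype difference on the control diet at 30 °C, in other animals, gave 8025 genes higher and 1558 lower. Of the genes called on the high fat diet, 78.9% were called the same way on the control diet, and these were 77.8% of the control diet's calls, 6462 higher and 997 lower. The correlation of the 2 differences across 14807 genes was 0.855. These values are as deposited, where 52.8% of all genes were called higher on the high fat diet. On that scale the median gene was 0.246 higher in Ucp1-KO on the high fat diet and 0.268 higher on the control diet. How much of the agreement comes from this common shift was not tested. A test of the difference itself, genotype by diet, called 411 genes (2.78%) with a more positive and 559 (3.78%) with a more negative genotype difference on the high fat diet, 355 and 465 of them under all 3 scalings.

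None of the type I or gamma interferon genes, macrophage genes or collagens passed the genotype-by-diet test. Type I interferon genes had a median genotype difference of 2.72 on the high fat diet and 2.39 on the control diet, lipid-associated macrophage genes 1.39 and 1.61, and complex I genes -0.492 and -0.248, with 1 complex I gene past the test. Antibody genes did pass it. On the high fat diet the median of Ighm was 270 RPKM in Ucp1-KO (mean 671 RPKM, or 392 RPKM without library 44) and 8.11 RPKM in wild-type, and on the control diet 38.5 RPKM (16.6 to 90.6 RPKM) and 7.98 RPKM. The genotype difference was larger by 3.17 (adjusted p = 0.0086, 2.69 to 3.54 when any 1 library was left out). Igj and the plasma cell gene Mzb1 went the same way, by 2.90 and 1.70 (adjusted p = 0.0013 and 0.008). The B cell list had a median of 0.243 on the control diet, and 3 of its 9 members passed the test.

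Other genes with a larger genotype difference on the high fat diet included Tshr, the thyrotropin receptor (1.21 ± 0.13 on the high fat diet, -0.14 ± 0.13 on the control diet), Il23a, a cytokine subunit (2.36 ± 0.11 and 1.35 ± 0.11), and Arf4, a GTPase of the secretory pathway (0.74 ± 0.05 and 0.15 ± 0.05). Ptgds, a prostaglandin D2 synthase, fell on both diets, by less on the high fat diet (-1.37 ± 0.31 and -4.21 ± 0.31). Ppargc1a and Scd1 fell on the control diet (-0.92 and -0.86) and gave 0.19 and 0.35 on the high fat diet, neither past the test; the interaction of Ppargc1a, 1.11, had an adjusted p of 0.037 and was lost without library 35, 37, 41, 42 or 45. In wild-type animals Ppargc1a was at 67.4 RPKM on the control diet and 35 RPKM on the high fat diet, and Scd1 at 12038 and 5132 RPKM.

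Genes with a more negative difference on the high fat diet included vascular and metabolic ones. Pgf and Angpt2, growth factors of blood vessels, rose with the genotype on the control diet (1.74 ± 0.19 and 0.89 ± 0.11) and gave -0.01 ± 0.19 and -0.19 ± 0.11 on the high fat diet, and the Notch ligand Dll4 fell further on the high fat diet (-1.39 ± 0.11 against -0.38 ± 0.11). Of the 18 endothelial genes, 7 had a negative genotype-by-diet difference and none a positive one, with list medians of -0.032 on the high fat diet and 0.445 on the control diet. Pecam1 differed by -0.55 (adjusted p = 0.014), and Kdr by -0.44 (adjusted p = 0.045), a call lost in 12 of the 16 fits that left out 1 high fat library. Npr1, the natriuretic peptide receptor, fell by 0.71 (SE 0.10) on the high fat diet and gave 0.14 ± 0.10 on the control diet, and Mlxipl, Pfkl and Idh2 fell further on the high fat diet (interactions of -0.79, -0.64 and -0.59). The acute phase gene Saa3 rose by less on the high fat diet (1.66 against 2.94, interaction of -1.28), and Itih4 rose on the control diet (2.63) and gave 0.36 on the high fat diet, not past the test (interaction of -2.27). Red blood cell genes had a median of -1.31 on the high fat diet and 0.423 on the control diet; among them Alas2 passed the test (-1.59, adjusted p = 0.032), lost without library 47 (adjusted p = 0.0601).

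**Figure D4:**
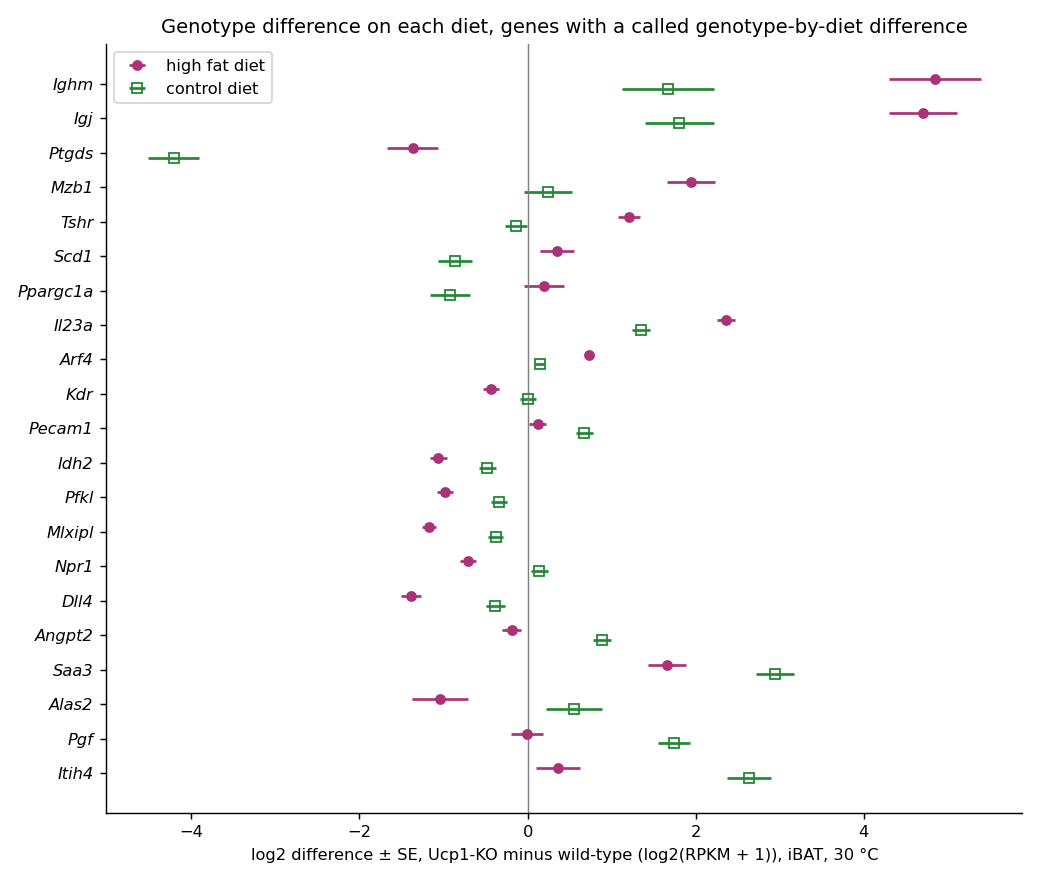
Log2 difference ± SE (Ucp1-KO minus wild-type, log2(RPKM + 1)) in iBAT at 30 °C on the high fat diet (filled circles) and the control diet (open squares) for 21 genes with a called genotype-by-diet difference. Ighm lies at 4.84 on the high fat diet and 1.67 on the control diet, and Pgf at -0.01 and 1.74.

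In inguinal fat of the high fat groups fewer genes were called, and their number depended on the fit. A fit of all 96 libraries over 16310 genes called 45 genes higher (0.276%) and 19 lower (0.116%) in iWAT, with 1441 genes at an unadjusted p under 0.05. After quantile normalization the iWAT calls were 99 higher and 22 lower, and with array weights, which let libraries count unequally, 1100 higher and 1605 lower. The genotype-by-depot test called 6738 genes (41.3%) with a more positive and 1058 (6.49%) with a more negative difference in iBAT, and 2307 and 1055 of these under all 3 scalings. Libraries of both depots come from the same animals by the design, but the labels do not tie them to each other, so the fit treats them as independent. In iWAT, Ucp1 was at 15.3 RPKM in wild-type and 12.9 RPKM in Ucp1-KO (0.18 ± 0.40), so its level there does not check the labels. None of the 32 type I interferon genes, 24 lipid-associated macrophage genes or 29 integrated stress genes was called in iWAT (list medians -0.169, 0.031 and -0.052), while array weights called 1, 2 and 4 of them lower and 2 of the stress genes higher. In the fit without weights 31, 22 and 21 of them had a larger difference in iBAT. The 6 red blood cell genes had a list median of -1.01 in iWAT too, with none of them called there. Of these 6 genes, 1 had a called depot difference, more negative in iBAT.

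Named genes with the smallest adjusted p for the depot difference came only in part from the groups above. Ubd differed between genotypes by 4.90 ± 0.27 in iBAT and -0.18 ± 0.27 in iWAT, Srxn1 by 3.10 ± 0.16 and -0.001 ± 0.16, Cfb by 3.28 ± 0.17 and -0.003 ± 0.17, and H2-D1 by 1.75 ± 0.10 and -0.06 ± 0.10. Il23a and Dnmt3l, a cofactor of DNA methylation, were below 0.5 RPKM in iWAT of both genotypes and rose in iBAT by 2.36 ± 0.08 and 2.31 ± 0.13. On the other side Mapt (-1.87 ± 0.14 in iBAT, -0.01 ± 0.14 in iWAT), the lysosomal channel Tpcn1 (-1.11 ± 0.06 and -0.09 ± 0.06) and the phosphodiesterase Pde4a (-1.22 ± 0.09 and -0.07 ± 0.09) fell in iBAT. In wild-type animals Ubd was at 36.4 RPKM, Cfb at 133.9 RPKM and H2-D1 at 748.6 RPKM in iWAT, levels that in iBAT of wild-type animals were not reached (at most 5.94, 9.8 and 214 RPKM).

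A few genes moved in opposite directions. Cidea fell in iBAT (-0.89 ± 0.22) and rose in iWAT (0.99 ± 0.22, adjusted p = 0.0128), where it was at 16.5 RPKM in wild-type and 24.6 RPKM in Ucp1-KO. Crat, carnitine acetyltransferase, gave -0.67 ± 0.08 and 0.32 ± 0.08 (adjusted p = 0.0424 in iWAT), and Idh3a, of the TCA cycle, -0.32 ± 0.11 and 0.45 ± 0.11 (adjusted p = 0.0199). Each passed the depot test. Scoc fell in both depots, by 1.29 in iBAT and 1.20 in iWAT (SE 0.10 each, adjusted p = 4.5e-17 in iWAT), with no call for the difference as deposited (-0.09, adjusted p = 0.60) and one after median-ratio scaling (-0.434, adjusted p = 0.00956), and Usp38 rose in both (1.15 ± 0.07 and 0.52 ± 0.07). Scoc lies in the neighbourhood of Ucp1, in the order Tbc1d9, Ucp1, Elmod2, Scoc in RefSeq's GRCm38.p6, and it separates the genotypes in iWAT where Ucp1 does not: it was at 7.8 RPKM in wild-type and 2.81 RPKM in Ucp1-KO.

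**Figure D5:**
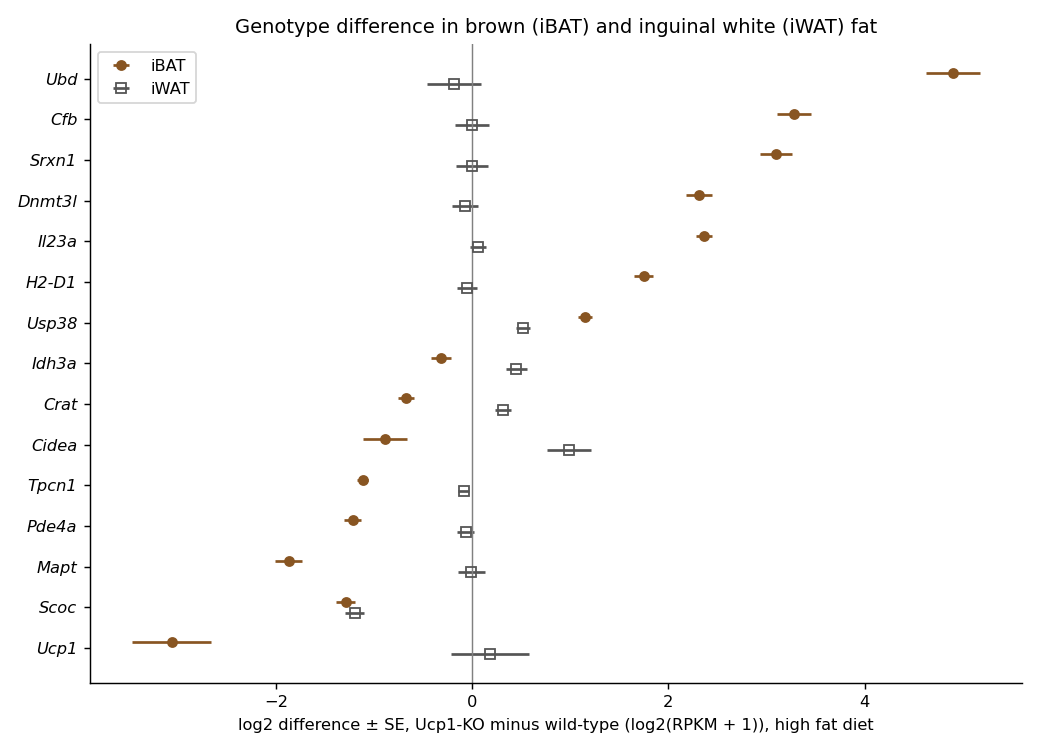
Log2 difference ± SE (Ucp1-KO minus wild-type, log2(RPKM + 1)) on the high fat diet in iBAT (filled circles) and iWAT (open squares) for 15 genes, from a fit of all 96 libraries. Most lie near 0 in iWAT, Cidea lies at -0.89 in iBAT and 0.99 in iWAT, and Scoc lies at -1.29 and -1.20.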

How the data were processed

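The authors deposited RPKM per transcript for 96 libraries; the kit was stranded, per the labels' protocols. CASAVA and bcl2fastq appear in the submitters' processing notes. Aligner, counter and genome build: not given in the sources used here. Relative depth was recovered from the steps of low values; 95.0 to 95.7% of values came out within 0.05 of a whole read. One transcript row stood for each gene. log2(RPKM + 1) was fitted with limma 3.58.1 (trend) in R 4.3.3 over 48 iBAT libraries in 6 group means, for genes reaching 0.5 RPKM in 8 or more libraries, with Benjamini-Hochberg adjustment at 0.05. Genotype by diet came from the same fit, genotype by depot from 96 libraries in 12 group means. Code was tested on simulated data. Other pseudocounts, filters, scalings, transcript sums, weights, sample sets and left-out libraries were tried.

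The lists and the comparison were chosen with earlier results of these data known. Genes named by rule were Ucp1, the 10 largest called changes each way, each list's key genes and 4 smallest p, 8 and 6 genes each way for diet and depot, and the 6 most variable called genes. Ctsz, Vldlr, Mavs, Gpx3, Slc40a1, Zic1, Lhx8, Acaa1b, Atp5g1, Crat, Scoc and Usp38 were chosen after their values were seen. Ifi27, Plin3 and Plin5 were also named outside the rule. Some genes that the rule names are not reported here.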

Additional observations from a re-analysis of the deposited data

Results flagged for a closer look

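Among 316 groups of 8 libraries examined for the named genes, 23 (7.28%) had a library set apart from the rest by Dixon's criterion, and chance gives about 1 in 20. Ucp1-KO library 43 accounted for 11 of them. It was low for Psmb8 (26.6 RPKM), H2-K1 (311 RPKM), H2-D1 (394 RPKM), Cfb (24.7 RPKM), Cp (24.6 RPKM), Srebf1 (27.3 RPKM), Lipe (365 RPKM) and Adipoq (497 RPKM), and high for Acly (111 RPKM), Cyp2b10 (4.29 RPKM) and Mapt (7.1 RPKM). Among the other Ucp1-KO libraries, Trib3 was low in library 47 (14.4 RPKM) and Ckm low in library 46 (0.703 RPKM). Among wild-type libraries, library 37 was set apart for Trib3 (11.6 RPKM), Idh2 (181 RPKM), Acly (54.9 RPKM) and Trf (132 RPKM), library 38 for Atf5 (212 RPKM), Acadl (1324 RPKM) and Vegfb (106 RPKM), library 33 for Lck (0.688 RPKM), library 39 for Slc40a1 (19.5 RPKM) and library 40 for Timp1 (7.37 RPKM).

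The genotype difference differed between diets, by the interaction test, for Igj (2.9), Ighm (3.17), Mzb1 (1.7), Ppargc1a (1.11), Scd1 (1.21), Tshr (1.35), Il23a (1.02), Arf4 (0.589) and Ptgds (2.84), each more positive on the high fat diet. It was more negative for Mlxipl (-0.794), Pfkl (-0.64), Idh2 (-0.585), Pgf (-1.76), Itih4 (-2.27), Angpt2 (-1.08), Dll4 (-1), Npr1 (-0.849), Alas2 (-1.59), Kdr (-0.439), Pecam1 (-0.551) and Saa3 (-1.28). The calls for Ptgds and Saa3 were lost with a pseudocount of 0.1 (adjusted p = 0.058 and 0.14), and those for Scd1, Ppargc1a, Alas2 and Kdr without the filter on low values (adjusted p = 0.102, 0.0595, 0.0526 and 0.0655). The call for Ppargc1a was also lost after quantile normalization (0.0582), that for Alas2 with array weights (0.0576) and that for Kdr with values summed over transcripts (0.091).

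It differed between depots for Ubd (5.09), H2-D1 (1.8), Srxn1 (3.1), Cfb (3.29), Il23a (2.3), Dnmt3l (2.38) and Usp38 (0.623), more positive in iBAT, and for Mapt (-1.86), Tpcn1 (-1.03), Pde4a (-1.15), Cidea (-1.88), Crat (-0.99) and Idh3a (-0.767), more negative in iBAT. After quantile normalization the value for Usp38 was 0.186 and was not called.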

How the results depend on the processing

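Over 193 gene values and their alternatives, 4712 of 4818 recomputed values kept their direction and their side of the threshold, 65 lost the call, 22 gained it and 19 changed sign. The count of genes higher in Ucp1-KO was 4057 after median-ratio scaling and 3391 after quantile normalization, and lower 3884 and 4850. With array weights the genotype-by-diet test called 2738 genes, 996 above 0 and 1742 below, and the iWAT comparison called 2705 genes against 64 without weights, 121 after quantile normalization and 41 with a pseudocount of 0.1. Genotype by depot gave 2965 and 2429 genes above 0 and 2998 and 3605 below under median-ratio and quantile scaling. After median-ratio scaling the sign changed for Atf5 (-0.267), Ppargc1a (-0.11), Dio2 (-0.0831), Fasn (-0.111), Acly (-0.0708), Lipe (-0.158) and Pecam1 (-0.189), and after quantile normalization for Atf5 (-0.0652), Ppargc1a (-0.0777), Acly (-0.0253) and Pecam1 (-0.115). Array weights turned Atf5 (-0.028), Ehhadh (0.099) and the depot difference of Scoc (0.0341), and leaving out the 3 muscle-rich libraries turned Ehhadh (0.0401). Leaving out 1 library gave -0.00842 to 0.0798 for Atf5, -0.134 to 0.0636 for Ehhadh and -0.0141 to 0.41 for Fasn. None of these differences passed the test as deposited, and the cause was not tested. Depth limits the genes below 1 RPKM, where the pseudocount compresses differences. No paired analysis was possible because the library numbers run from 1 to 96 and no groups share one.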
